A study of Mus musculus with 19 samples.

Results

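The genes of oxidative phosphorylation were followed through 16 RNA-seq libraries of mouse embryonic brain and adult cerebellum. Members were the protein-coding genes whose symbols begin with mt-Nd, mt-Co, mt-Atp or mt-Cytb, with Nduf followed by a, b, c, s or v and a digit, with Uqcr or Atp5, or with Cox followed by a digit from 4 to 8, together with Sdha, Sdhb, Sdhc and Sdhd. Of the 41388 genes in the count files, 97 met this rule, and their symbols, not their values, chose them. Mitochondrial DNA encodes 13 of them and the nucleus 84. Complex I held 42 members (7 mitochondrial and 35 nuclear), complex II 4, complex III 9 (1 and 8), complex IV 23 (3 and 20) and complex V 19 (2 and 17). Ndufa4 and Ndufa4l2 were placed in complex IV, where Ndufa4 is now known to belong, and Cox7a2l, which helps complexes join into supercomplexes, and Atp5s, a protein related to the ATP synthase, were kept where their symbols put them. Another 10 genes with matching symbols were processed pseudogenes counted at most 20 times in any library, and they were not used.

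The respiratory chain lies in the inner membrane of the mitochondrion. Complex I takes electrons from NADH and complex II from succinate, complex III passes them to cytochrome c, complex IV gives them to oxygen, and complex V, the ATP synthase, makes ATP from the proton gradient that complexes I, III and IV build. Apart from complex II, whose subunits are all nuclear, each complex is put together from proteins of both genomes, and neurons depend on the process heavily to pay for ion pumping and synaptic transmission.

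Wiz is a zinc finger protein that binds the histone methyltransferases Ehmt1 and Ehmt2, and MommeD30 is a loss-of-function allele of it, a single-base deletion from an N-ethyl-N-nitrosourea screen. All groups were FVB mice (FVB/NJ in the study's methods), and the allele was recovered in the Line3 strain, which carries a multicopy GFP transgene under a human α-globin promoter. Whole brains came from embryos at 13.5 days post coitum (E13.5): 3 Wiz +/+ and 3 Wiz MommeD30/+ males, and 2 Wiz +/+ and 2 Wiz MommeD30/+ females. Cerebellum came from males at 56 days post partum, 3 Wiz +/+ and 3 Wiz MommeD30/+. The heterozygotes keep 1 normal Wiz allele, homozygous brains were not sequenced, and nothing in the labels tells whether replicates came from separate litters, so p-values measure the spread between these samples.

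Total counts per library ran from 16386029 to 50459755, the lowest in the second wild-type male brain, and from 28365687 to 30856484 in the cerebella. The genotype labels were checked on Wiz itself, which stood at 104 to 105 counts per 1000000 (CPM) in wild-type and 73.1 to 74.7 in heterozygous cerebella, and at 173 to 190 and 111.7 to 121.7 in brains of the same genotypes. The tissue labels were checked on marker lists: 6 of 6 granule cell, 6 of 6 Purkinje cell and 6 of 6 oligodendrocyte markers were higher in wild-type cerebellum, and 6 of 6 progenitor markers were lower. CPM values here are scaled by edgeR's TMM factors over all 16 libraries, levels between genes are compared as CPM per kilobase of exon, and a gene is called changed where edgeR's quasi-likelihood test, Benjamini-Hochberg adjusted over all genes tested, gave a p of 0.05 or less.

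The counts of the mitochondrial members were set beside where they lie, since the nuclear genome holds a copy of part of the mitochondrial genome. In GRCm38 (mm10) the minus strand of chr1:24611535-24616184 matches positions 6394 to 11042 of the mitochondrial genome with 1 differing base, at mitochondrial position 9461, and 1 single-base gap over 4649 bases (99.96% identical). The stretch is 28.5% of the 16299 mitochondrial bases. It runs from within mt-Co1 through mt-Co2, mt-Atp8, mt-Atp6, mt-Co3, mt-Nd3 and mt-Nd4l into mt-Nd4. The sequences on either side of both ends are shown because they mark where the mitochondrial genes stop being distinguishable from the copy. Capitals mark the 40 bases inside the shared stretch and lower case the 40 bases outside it, all written 5′ to 3′ in the direction of mt-Co1 and mt-Nd4. The windows are chrM:6354-6433 (plus strand) against chr1:24616145-24616224 (minus strand), and chrM:11003-11082 (plus strand) against chr1:24611495-24611574 (minus strand).
mt-Co1 end, mitochondrial genome: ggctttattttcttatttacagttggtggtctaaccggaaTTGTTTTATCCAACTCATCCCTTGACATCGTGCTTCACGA
mt-Co1 end, chromosome 1 copy: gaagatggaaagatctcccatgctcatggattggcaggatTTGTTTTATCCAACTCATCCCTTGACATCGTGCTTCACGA
mt-Nd4 end, mitochondrial genome: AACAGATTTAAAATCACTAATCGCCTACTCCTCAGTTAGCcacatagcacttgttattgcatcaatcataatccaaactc
mt-Nd4 end, chromosome 1 copy: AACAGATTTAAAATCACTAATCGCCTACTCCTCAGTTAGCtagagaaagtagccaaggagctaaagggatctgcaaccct

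Counts followed this map in all but 1 gene, but whether the copy lowered any count was not tested. Over all 16 libraries mt-Co2, a catalytic subunit of cytochrome c oxidase, had 1.10 to 5.52 CPM, mt-Atp6 of the ATP synthase 1.56 to 6.04, mt-Co3 0.579 to 1.501, mt-Nd3 0.579 to 2.81 and mt-Nd4l 2.04 to 7.51. Of the 100-base windows of these 5 genes, the length of 1 read, 98.8% or more occurred elsewhere in the genome. By contrast mt-Nd1, mt-Nd5, mt-Nd6 and mt-Cytb had no such window, mt-Nd2 had 3.2%, mt-Co1 30.8% and mt-Nd4 60.8%, and these 7 genes had between 325 CPM (mt-Nd6, lowest library) and 14721 CPM (mt-Co1, highest library). The exception was mt-Atp8, at 516 to 1612 CPM although all of its windows occur in the copy. The 7 pseudogenes annotated on the copy leave uncovered the stretch that matches the greater part of mt-Atp8, and together they were counted 28 to 207 times per library (1.71 to 7.30 per 1000000 counts). The 5 genes of low count are reported here as uncertain, as is mt-Nd6, which lies on the strand opposite to and overlaps the end of mt-Nd5, because whether the counting used strand is not given in the sources used here.

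**Figure D1:**
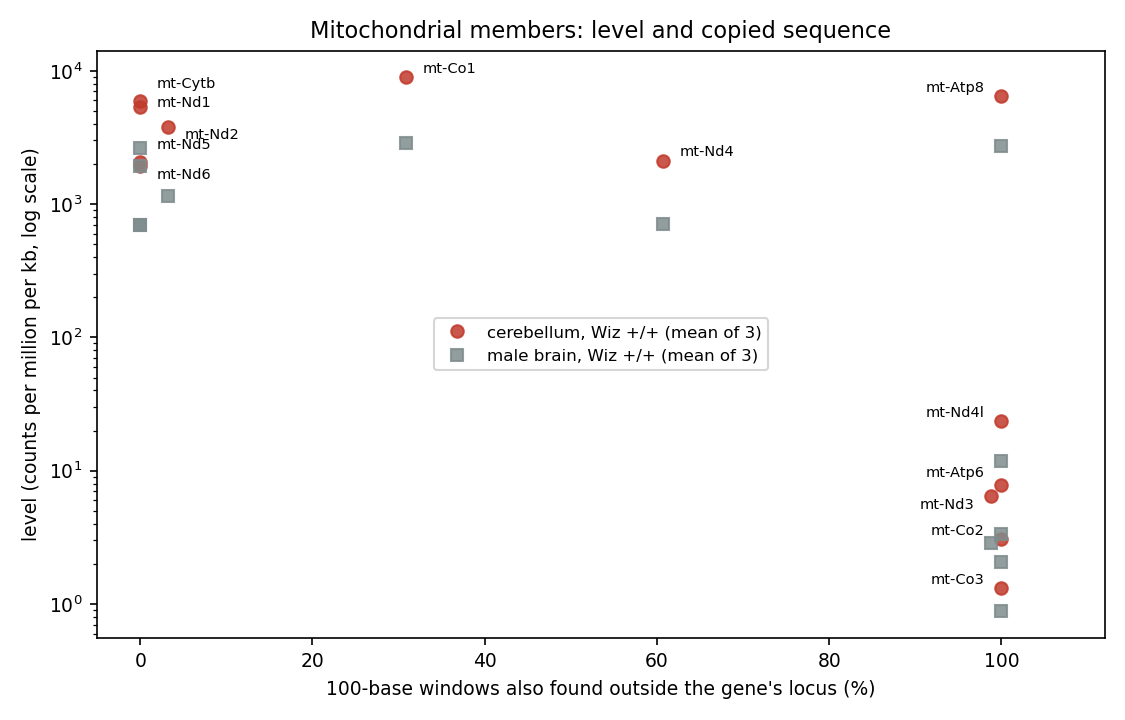
Mean CPM per kilobase of each of the 13 mitochondrial members in the wild-type cerebella and wild-type male brains (log axis) against the percent of its 100-base windows that occur elsewhere in the genome. The 7 genes at 60.8% or below lie at 8910 or less but far above the 6 genes at 98.8% or more, mt-Atp8 excepted.

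Per kilobase, mt-Atp8 and the mitochondrial members with part or all of their sequence outside the copy were far above the nuclear ones. In wild-type cerebellum mt-Co1, the core of cytochrome c oxidase, stood at 8910 CPM per kb, mt-Atp8 at 6482, mt-Cytb, the mitochondrial subunit of complex III, at 5931, and mt-Nd1, a membrane subunit of complex I, at 5341. The median of the 84 nuclear members was 58.1 CPM per kb. The highest nuclear members were Cox8a and Cox6a1, small subunits of complex IV, at 633 and 422, and Atp5b, the catalytic β subunit of the ATP synthase, at 377. In wild-type male E13.5 brain the same genes stood at 2882 (mt-Co1), 2707 (mt-Atp8), 2626 (mt-Cytb) and 1930 (mt-Nd1), and the nuclear median was 31.01. Nuclear medians by complex in cerebellum and E13.5 brain were 46.9 and 23.3 CPM per kb for complex I, 65.3 and 40.9 for II, 93.0 and 48.6 for III, 62.2 and 31.1 for IV, and 62.3 and 39.1 for V. Complex III was the highest of the nuclear medians and complex I the lowest in both tissues. The RNA was selected by its polyA tail, and what part of each mitochondrial transcript was captured cannot be read from counts.

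As a share of all counts, the 13 mitochondrial members took 3.54%, 3.46% and 3.56% in the wild-type cerebella (3.52% ± 0.053, SD, n = 3) and 1.44%, 1.41% and 1.48% in the wild-type male brains (1.44% ± 0.036, SD, n = 3). The 84 nuclear members took 1.13%, 1.08% and 1.10% in the first (1.10% ± 0.0245) and 0.642%, 0.652% and 0.643% in the second (0.646% ± 0.0052). No cerebellum overlapped a brain in either share. The ratio of mitochondrial to nuclear counts was 3.14 to 3.25 in the wild-type cerebella and 2.16 to 2.30 in the wild-type male brains. Heterozygous cerebella gave 3.88%, 3.64% and 3.64% for the mitochondrial members (3.72% ± 0.135, n = 3) and 1.03%, 1.06% and 1.06% for the nuclear ones (1.05% ± 0.0175, n = 3). Every heterozygous cerebellum was above every wild-type one in the mitochondrial share and below every wild-type one in the nuclear share, and the ratio was 3.43 to 3.76. Over all 10 E13.5 brains the mitochondrial share was 1.36% to 1.55% and the nuclear share 0.627% to 0.684%. Genotypes overlapped there in the mitochondrial share in both sexes and in the nuclear share in females, whereas in males the nuclear share was 0.642% to 0.652% in wild types and 0.627% to 0.640% in heterozygotes, without overlap.

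**Figure D2:**
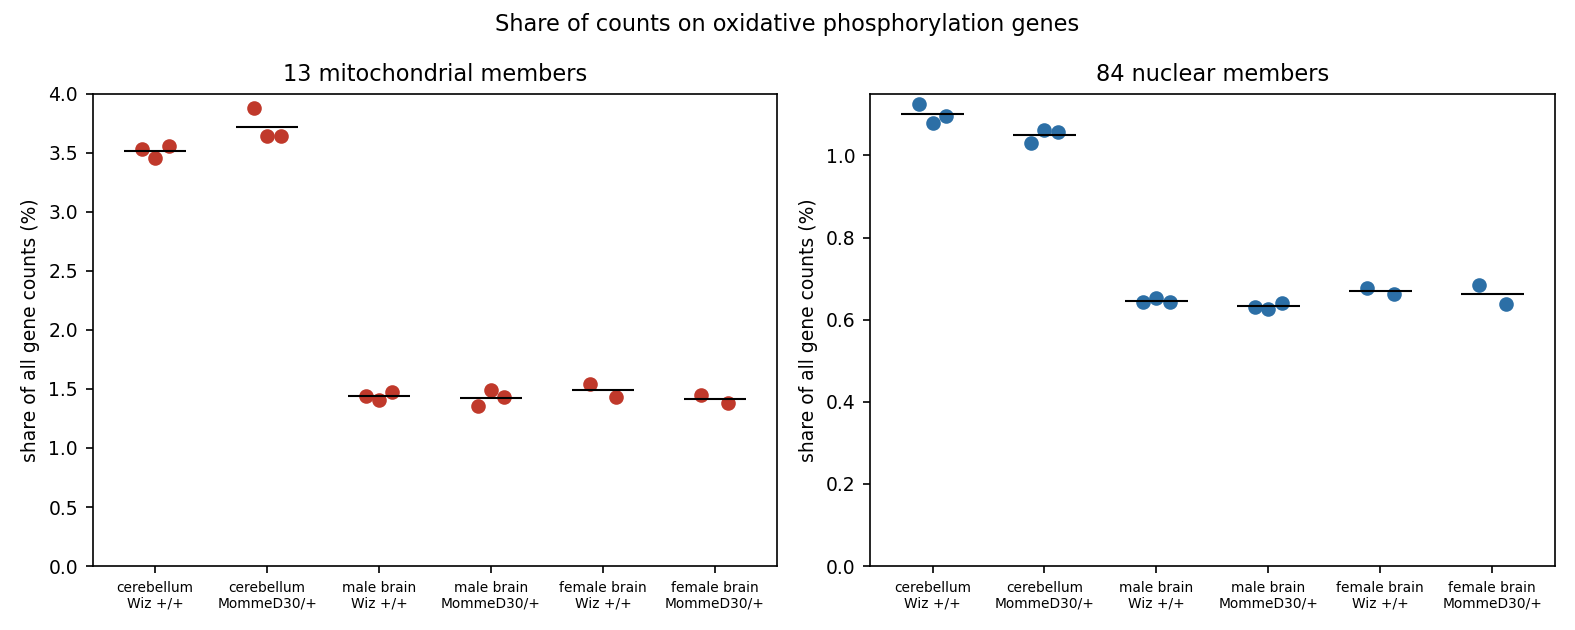
Percent of all counts in each of the 16 libraries taken by the 13 mitochondrial members and by the 84 nuclear members, by tissue, sex and genotype, with bars at the group means. The 6 cerebella lie at 3.46% to 3.88% and 1.03% to 1.13%, above the 10 brains at 1.36% to 1.55% and 0.627% to 0.684%.

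The largest difference was that between tissues. Wild-type cerebellum had more RNA of nearly every member than wild-type male E13.5 brain. Of 94 members tested, 90 were higher, where 42.9% of 16840 genes were higher, and 1 was lower, where 43.6% of genes were lower. The median log2 fold change was 1.26 over the 13 mitochondrial members (2.39-fold) and 0.96 over the 81 nuclear members tested (1.95-fold), against -0.02 over all genes tested. Tissue and age differ together in this comparison and cannot be told apart, nor in bulk tissue can a change in RNA per cell be told from a change in the number of cells of a type.

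Among the nuclear complexes the median rise was 0.95 on the log2 scale for complex I (35 of 35 tested were higher), 0.56 for complex II (4 of 4), 1.08 for complex III (8 of 8), 1.43 for complex IV (15 of 17 higher, 1 lower) and 0.74 for complex V (16 of 17). The differences between complexes were not tested. For the mitochondrial members it was 1.47 for complex I (7 of 7), 0.53 for complex IV (2 of 3) and 1.19 for complex V (2 of 2), and mt-Cytb of complex III rose by 1.18. The complex IV value is that of mt-Co2 (0.53), between mt-Co3 (0.49, adjusted p = 0.0909) and mt-Co1 (1.63). Both mt-Co2 and mt-Co3 lie in the copied stretch. Over the 7 mitochondrial members with no more than 60.8% of their windows found elsewhere the median was 1.56.

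Within complex I the largest rises were those of Ndufa13, an accessory subunit also known as GRIM-19, Ndufs7, which carries the last iron-sulphur cluster before ubiquinone, and the mitochondrial mt-Nd2. Ndufa13 had 109, 101 and 103 CPM in the cerebella and 31.8, 31.1 and 30.4 in the brains (log2 fold change 1.75 ± 0.0452 SE, adjusted p = 1.21e-14). The groups were far apart, with the lowest cerebellum above 3 times the highest brain. Ndufs7 had 86.9, 75.8 and 78.9 CPM against 23.9, 26.1 and 24.1 (1.72 ± 0.055, adjusted p = 1.57e-13), and mt-Nd2 3993, 3884 and 3950 against 1229, 1151 and 1218 (1.72 ± 0.0419, adjusted p = 6.03e-15). Of the other mitochondrial complex I genes, mt-Nd1, mt-Nd5 and mt-Nd6, with no window found elsewhere, rose by 1.46 to 1.56, and mt-Nd4, with 60.8% found elsewhere, by 1.59.

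The 4 subunits of complex II, which also serves the citric acid cycle as succinate dehydrogenase, did not rise evenly. Sdha, the flavoprotein that oxidises succinate, had 509, 497 and 495 CPM in the cerebella and 165, 174 and 167 in the brains, a rise of 1.57 ± 0.036. Sdhb, the iron-sulphur subunit, rose by 0.44, and the membrane anchors Sdhc and Sdhd by 0.45 and 0.67. All were called (adjusted p from 2.84e-15 to 3.31e-08), and the interval for Sdha did not reach those of its partners.

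Complex IV showed the widest range, through the subunits that exist as pairs. Cox8a was at 406, 384 and 387 CPM in the cerebella and 85.3, 89.1 and 78.7 in the brains, the largest rise of any member above 10 CPM in cerebellum (4.66-fold, log2 2.22 ± 0.0455, adjusted p = 8.23e-16). Cox6a1 rose by 1.65, Ndufa4 by 1.60, Cox4i1 by 1.54, Cox7b by 1.196, Cox7a2 by 1.09 and Cox6b1 by 0.93, all of them the forms found in most tissues. The forms known from muscle, lung or testis had larger fold changes in several pairs but stayed rare. Cox7a1, the heart and skeletal muscle partner of Cox7a2, had 2.89, 2.97 and 3.28 CPM against 0.358, 0.405 and 0.331 (log2 3.08 ± 0.194, adjusted p = 6.50e-10). It made up 3.57% to 4.12% of the Cox7a1 and Cox7a2 total per kilobase in cerebellum and 0.875% to 1.17% in brain. Cox4i2, a form best known from lung, rose by 2.38, reaching between 2.82 and 3.68 CPM in cerebellum, and was 1.27% to 1.60% of the Cox4i1 and Cox4i2 total per kilobase. Cox6b2, a testis form, rose by 1.79, reaching between 8.18 and 9.38 CPM, or 2.80% to 3.23% of its pair.

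Cox7b2, also a testis form, had 36 to 50 counts per wild-type cerebellum and 1 to 2 per wild-type male brain, a ratio of 40.01 with a 95% counting interval of 15.2 to 149. Cox8b, the muscle partner of Cox8a, was counted 7 to 16 times per cerebellum and not at all in the 3 brains, and it was at least 15.1-fold higher in cerebellum against a floor of 3 counts over the group. Cox6a2, the muscle partner of Cox6a1, had 1 to 3 counts per library and Cox8c, a testis form, none, which allows 3 counts per group of 3 libraries. Cox6a2, Cox8b and Cox8c did not pass the filter on low counts. Summed skeletal muscle markers were at 2.86 to 3.11 CPM in the wild-type cerebella and 6.31 to 9.75 in the wild-type male brains. Of 5 of these markers tested, 3 were lower and 1 was higher in cerebellum. Summed heart muscle markers were at 5.49 to 6.43 CPM in the cerebella and 7.08 to 7.80 in the brains, with 1 of 3 tested higher and 1 lower. Whether muscle RNA contributed to Cox7a1 and Cox8b was not tested.

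Only Cox7a2l was called lower in cerebellum, with 92.0, 89.3 and 84.9 CPM against 124, 131 and 124 in brain (log2 fold change -0.50 ± 0.0399, adjusted p = 1.05e-08). Its groups did not overlap, although 26.7% of its windows also occur elsewhere in the genome. Ndufa4l2, a hypoxia-induced partner of Ndufa4, had 2.09, 2.11 and 2.07 CPM against 2.58, 3.01 and 2.09 and was not called (log2 -0.26, adjusted p = 0.137). Per kilobase it was 0.918% to 0.954% of the Ndufa4 and Ndufa4l2 total in cerebellum and 2.72% to 4.18% in brain.

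In complex V the 3 genes for subunit c, the proton-carrying ring of the ATP synthase, encode the same mature protein and moved apart. Atp5g1 rose from 53.0, 56.6 and 50.4 CPM in brain to 140, 134 and 131 in cerebellum (log2 1.34 ± 0.0445), and Atp5g3 rose by 0.80 ± 0.0364. Atp5g2 had 56.5, 53.8 and 56.3 CPM in cerebellum and 55.6, 55.2 and 57.9 in brain, and these values overlapped (log2 -0.02, 95% interval -0.10 to 0.06). Per kilobase Atp5g1 made up 14.8% to 15.2% of the 3 in cerebellum and 8.96% to 10.04% in brain, Atp5g2 17.6% to 18.7% and 28.7% to 30.2%, and Atp5g3 66.5% to 67.5% and 60.8% to 61.9%. Of the windows of Atp5g2, 35.2% occur elsewhere in the genome, and of those of Atp5g1, 19.4%. The smallest rise that was called was 0.32 for Atp5e, the ε subunit.

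**Figure D3:**
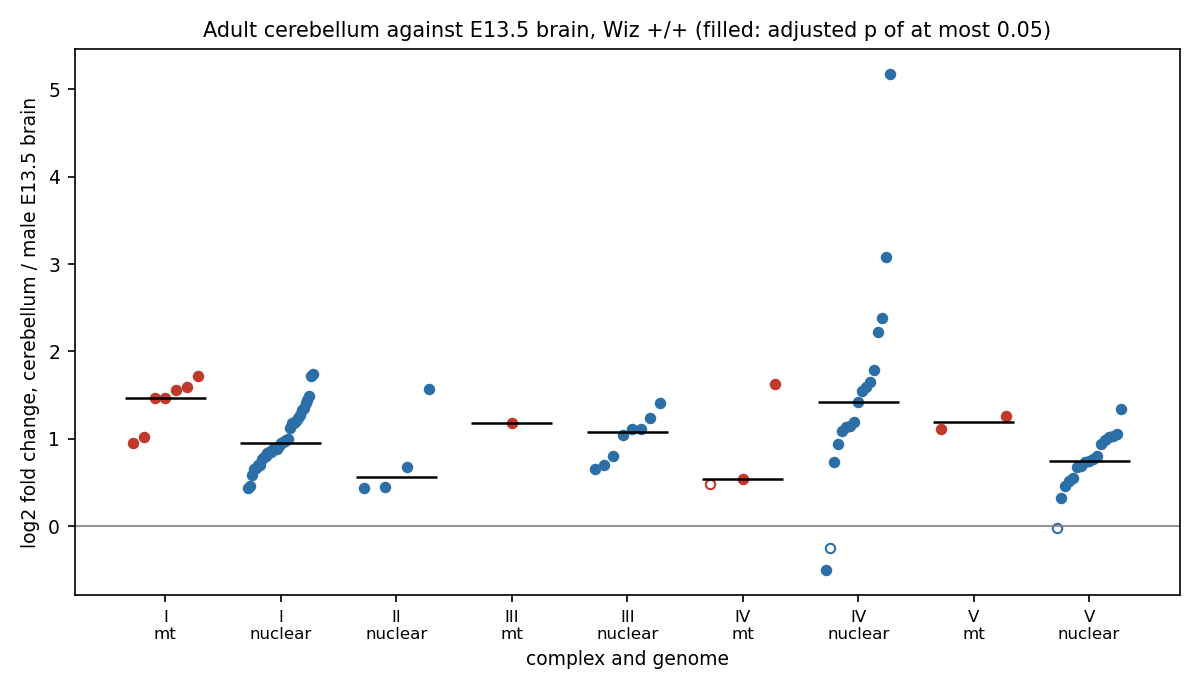
Log2 fold change of each tested member in wild-type cerebellum over wild-type male E13.5 brain, by complex and genome, with mitochondrial sets in red, nuclear sets in blue, called members filled and the median of each set as a bar. Nearly all points lie above 0, Cox7b2 is highest at 5.18 and Cox7a2l lowest at -0.50.

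The tissue difference kept its direction with the heterozygous samples, where 90 of 94 members were higher in cerebellum (43.1% of 16967 genes) and 2 were lower (44.1%), namely Cox7a2l and Atp5g2 (-0.10). Scaling by total counts alone moved the median of all genes to -0.23, and relative to that shift the members stood as before. Under it 89 members were higher and 3 lower, Atp5g2 and Ndufa4l2 having joined Cox7a2l. With an offset for the GC content of each gene the mitochondrial median was 1.41 and the nuclear one 0.94.

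Genes around the chain moved less evenly between tissues, and their counts stand against 42.9% of all genes higher and 43.6% lower. Cyc1, the cytochrome c1 of complex III, cytochrome c (Cycs) and Ndufab1, the acyl carrier subunit of complex I, all lie outside the symbol rule, and they rose by 1.25, 1.06 and 0.78. Of 46 assembly factors tested, 29 were higher and 9 lower (median 0.38), with Cox14 and Surf1, both used in building complex IV, at 1.56 and 1.34. Of 27 genes that maintain or express mitochondrial DNA, 9 were higher and 12 lower (median -0.10). Twnk, the mitochondrial helicase, and Ssbp1, the mitochondrial single-strand binding protein, were lower (-0.84 and -0.83), while Polrmt, the mitochondrial RNA polymerase, and Polg, the DNA polymerase, were higher (0.85 and 0.57).

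Of 12 regulators of respiratory genes, 6 were higher and 6 lower (median -0.16). Among the 6 higher, the coactivators Ppargc1b and Ppargc1a rose by 4.54 and 2.05 and the nuclear receptors Esrra and Esrrg by 1.84 and 0.94. The 6 lower ones are not named here. Most genes of the neighbouring pathways of fuel use were higher. They were 14 of 17 glycolysis genes (median 0.94, with Aldoc at 4.86, Eno2 at 4.17, Aldoa at 2.85 and Pfkm at 2.64) and 12 of 14 citric acid cycle genes (median 1.02, with Ogdh at 1.72, Idh3b at 1.70 and Idh3a at 1.63). Aldoc is also a marker of astrocytes and of some Purkinje cells, and summed Purkinje cell markers were at 6873 to 7316 CPM in these cerebella and 71.0 to 72.9 CPM in these brains, summed astrocyte markers at 2783 to 2865 and 189 to 203. What part of each rise followed the makeup of cell types was not tested. Of 12 outer membrane and import genes, 7 were higher and 3 lower (median 0.30), with the channels Vdac2 and Vdac1 at 0.88 and 0.67, the import receptor Tomm20 at 0.54 and the chaperonin Hspd1 at -0.53.

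The promoters of the nuclear members were searched because many of them moved together between tissues. Promoter windows from 250 bases before to 50 after the start were taken from RefSeq (GRCm38.p6), and 66 of the 84 nuclear members matched one. The motifs were the NRF1 core GCGCATGCG, the GABP/ETS core CCGGAAG and the YY1 core AAGATGGCG, on both strands, cores of factors known for their sites in respiratory genes. The NRF1 core was in the windows of 8 members (12.1%), against 2.72% of 16234 other coding genes and 1.75% of all 32851 promoters. The GABP/ETS core was in 16 (24.2%), against 13.4% and 8.86%, and the YY1 core in 7 (10.6%), against 2.23% and 1.40%. At least 1 of the 3 was in 26 (39.4%, against 17.2% and 11.4%). The median GC content was 57.3% in the members' windows and 57% in those of other coding genes. These shares are descriptions of sequence, and a match is not a bound site.

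In 5 members, Atp5j, Atp5k, Atp5l, Cox6a1 and Uqcr11, the window held 2 of the 3 cores (7.58% of members, against 1.08% of other coding genes and 0.645% of all promoters). Stretches of 2 of these windows are shown as examples of paired cores, with the motifs in capitals. Atp5j had another RefSeq window, at chr16:84835576-84835875, which held none of the 3 cores. The Cox6a1 stretch is chr5:115348959-115349128 on the minus strand, from 170 bases before the start to the base before it, with the NRF1 core beginning at -162 and the GABP/ETS core, read on the other strand as CTTCCGG, at -16. The Atp5j stretch (coupling factor 6 of the ATP synthase) is chr16:84834977-84835076 on the minus strand, from -100 to -1, with the YY1 core at -88 and the GABP/ETS core at -61.
Cox6a1: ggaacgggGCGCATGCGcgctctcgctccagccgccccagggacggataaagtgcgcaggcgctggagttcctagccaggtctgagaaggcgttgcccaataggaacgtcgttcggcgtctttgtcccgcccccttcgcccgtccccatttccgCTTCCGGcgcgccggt
Atp5j: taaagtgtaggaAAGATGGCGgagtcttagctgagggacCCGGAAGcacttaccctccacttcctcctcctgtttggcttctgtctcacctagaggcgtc

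In adult cerebellum the medians of the mitochondrial and nuclear members in Wiz MommeD30/+ mice lay slightly on opposite sides of wild type, but with an offset for GC content the mitochondrial median was 0.01 and no mitochondrial member was called. Without 1 library, the third wild type or the first heterozygote, no member was called at all. Of 95 members tested, 3 were higher in heterozygotes (2.69% of 15979 genes were), all of them mitochondrial, and 12 were lower (2.57% of genes were), all of them nuclear. The median log2 fold change was 0.07 over the mitochondrial members, 12 of 13 above 0, and -0.07 over the nuclear members, 76 of 82 below 0, against -0.003 over all genes. In 7 mitochondrial members all heterozygotes were above all wild types, and in 37 nuclear members all were below. The shares of all genes tested without overlap in each direction are not given here, so these counts describe the members alone. Apart from Cox7b2 no called member reached the fold limits of 0.7 or 1.3 that the study set.

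The 3 mitochondrial members called were mt-Cytb, mt-Nd2 and mt-Atp8. mt-Cytb had 6823, 6643 and 6891 CPM in wild types and 7672, 7197 and 7240 in heterozygotes (log2 fold change 0.12 ± 0.0321, adjusted p = 0.0353). mt-Nd2 had 3993, 3884 and 3950 against 4475, 4135 and 4190 (0.12 ± 0.0327, adjusted p = 0.0459). mt-Atp8 had 1333, 1311 and 1323 against 1612, 1428 and 1407 (0.17 ± 0.0413, adjusted p = 0.0252). In each the first heterozygote was the highest library and no wild type reached a heterozygote. mt-Nd4 (0.11, adjusted p = 0.0524), mt-Co1 (0.06, adjusted p = 0.255) and mt-Nd5 (0.07, adjusted p = 0.235) were also free of overlap but not called. The values of mt-Nd1 (0.03) and mt-Nd6 (0.06) overlapped, and those of the low-count genes in the copy ran from -0.002 for mt-Atp6 and 0.004 for mt-Nd4l through 0.07 for mt-Co2 and 0.25 for mt-Nd3 to 0.36 for mt-Co3, none of them called.

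Of the nuclear members lowered, 5 belong to complex I. Ndufs7 had 86.9, 75.8 and 78.9 CPM in wild types and 67.8, 73.0 and 69.4 in heterozygotes (log2 fold change -0.20 ± 0.0442, adjusted p = 0.0156). No heterozygote reached a wild type. The accessory subunits Ndufb8 (-0.13), Ndufa8 (-0.13) and Ndufa11 (-0.16) fell as well, with adjusted p from 0.0298 to 0.0435. The complex I median was -0.08, with 34 of 35 nuclear members below 0.

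Complex II had a median of -0.03 with no call, and its groups overlapped in all 4 members. In complex III, Uqcrq, a small subunit, had 81.9, 77.5 and 76.5 CPM against 69.1, 70.7 and 71.8 (-0.15 ± 0.0356, adjusted p = 0.0185), and Cyc1 outside the symbol rule fell by 0.17 (adjusted p = 0.00592). In complex V the δ subunit Atp5d fell from 162, 147 and 151 to 134, 141 and 142 CPM (-0.14 ± 0.0345, adjusted p = 0.0309). The medians of complexes III and V were -0.08 and -0.06.

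Complex IV had the lowest median, -0.10, and 5 calls. Cox6a1 had 310, 284 and 295 CPM in wild types and 258, 266 and 279 in heterozygotes (-0.14 ± 0.0334, adjusted p = 0.0196). Cox8a had 406, 384 and 387 against 353, 374 and 361 (-0.11 ± 0.0292, adjusted p = 0.0399). Cox5a, a subunit on the matrix side, fell by 0.13 (adjusted p = 0.0443) and Cox6b1, which joins the monomers of the enzyme, by 0.11 (adjusted p = 0.0487). Cox7b2 had the largest fold, with 1.37, 1.34 and 1.79 CPM against 0.731, 0.894 and 0.751 (-0.91 ± 0.219, adjusted p = 0.0220), but from 19 to 50 counts per library, where the counting interval of the ratio was 0.384 to 0.720.

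**Figure D4:**
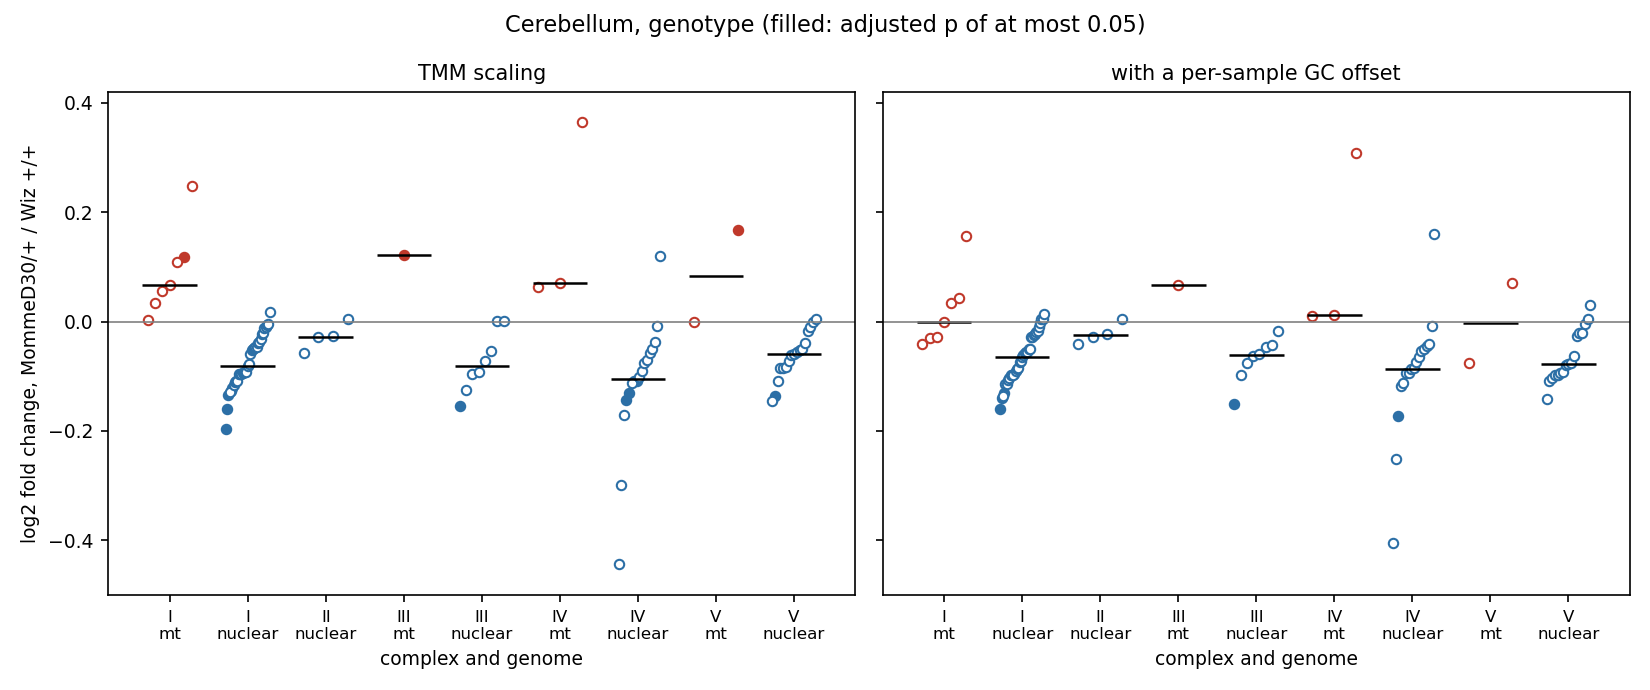
Log2 fold change of each tested member in Wiz MommeD30/+ over Wiz +/+ cerebellum, by complex and genome, with TMM scaling alone (left) and with a GC offset (right), called members filled and set medians as bars. On the left mitochondrial sets (red) lie mostly above 0 and nuclear sets (blue) below it, on the right the mitochondrial medians are near 0, and Cox7b2, at -0.91 and -0.98, lies beyond the lower end of the axis.

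GC content differed between the 2 sets of members and moved with genotype in the cerebella. The exons of the mitochondrial members had a median GC content of 37.1% (31.9% to 41.1%), those of the nuclear members 50.2% (36.7% to 62.8%) and those of all genes tested 49.3%. Over all genes tested in the cerebellum the median log2 fold change went from 0.06 below 38% GC to -0.07 at 56% and above. Over 732 genes below 40% GC and 2481 genes above 55%, the mean low-GC deviation minus the high-GC one was -0.11, -0.01 and -0.04 in the wild types and 0.07, 0.06 and 0.02 in the heterozygotes. The genotypes did not overlap in this measure.

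With an offset for GC content fitted in each sample, no mitochondrial member was called in cerebellum, and the mitochondrial median was 0.01. Of all genes 2.24% were higher and 1.68% lower in that fit. The nuclear median stayed at -0.07, and 7 nuclear members were lower. Cox5a, Cox7b2, Ndufb8, Ndufs7 and Uqcrq were among them, as was Ndufv2, an iron-sulphur subunit of complex I not called before (-0.13, adjusted p = 0.0223). Cox6a1 stood at -0.04 (adjusted p = 0.447), mt-Cytb at 0.07 (adjusted p = 0.294), mt-Nd2 at 0.04 (adjusted p = 0.552) and mt-Atp8 at 0.07 (adjusted p = 0.382). Within 40% to 42% GC, where 1025 genes had a median of 0.04 without the offset, 7 nuclear and 1 mitochondrial members had a median of -0.05.

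**Figure D5:**
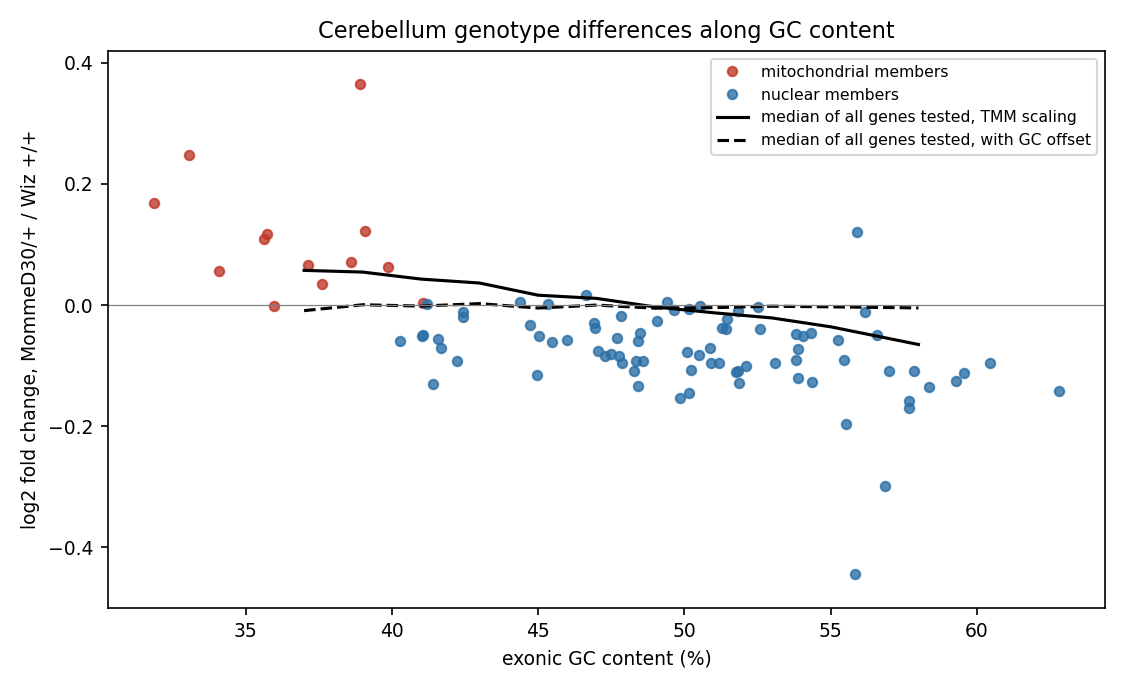
Median log2 fold change by genotype in cerebellum over all tested genes in bins of exon GC content, before and after the GC offset, with each mitochondrial (red) and nuclear (blue) member's value without the offset at its own GC content (Cox7b2, at -0.91, lies beyond the axis). Without the offset the line falls from 0.06 to -0.07, and with it all bins lie within 0.01 of 0.

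The cerebellum calls depended on single libraries. Without the first wild type only Cox7b2 was called, without the third wild type or the first heterozygote none, and without the second heterozygote 9 members. Markers of other cells moved with genotype in the same cerebella. Of 5 red blood cell markers tested 4 were higher in heterozygotes, among them Alas2 by 1.08 and Hba-a2 by 0.87, and their summed level was 160 to 249 CPM in wild types and 291 to 528 in heterozygotes. Of 6 oligodendrocyte markers 3 were lower, with sums of 5263 to 5658 against 5061 to 5307 CPM, and 1 of 6 granule cell markers was lower, with sums of 3596 to 3629 against 3405 to 3551. Of 5 progenitor markers 3 were lower, at sums of 110 to 120 against 89.6 to 103 CPM. Of 6 astrocyte and Bergmann glia markers Gdf10 was higher (0.12) and Gfap lower (-0.19), with sums of 2783 to 2865 against 2859 to 2905 CPM. Of 6 endothelial markers Cldn5 was lower (-0.26), with sums of 290 to 329 against 282 to 312 CPM, and of 3 heart muscle markers tested Tnni3 was higher (0.96), with sums of 5.49 to 6.43 against 5.94 to 6.62 CPM. No Purkinje, choroid plexus, microglial or skeletal muscle marker was called, and choroid plexus sums ran from 1912 to 2168 in wild types and 1047 to 2237 in heterozygotes. The part of these cells in the members' values was not tested.

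Few genes of the related lists were called by genotype in cerebellum. Bcs1l, which inserts the iron-sulphur protein into complex III, was the only one of 46 assembly factors called (-0.22, adjusted p = 0.0483), and the median of that list was -0.04. None of the 27 genes for mitochondrial DNA (median 0.005), the 12 regulators (0.03), the 14 citric acid cycle genes (-0.04) or the 12 outer membrane and import genes (-0.04) was called. Of 17 glycolysis genes Eno1 (-0.15, adjusted p = 0.00592) and Aldoa (-0.12, adjusted p = 0.0362) fell, and the median was -0.08.

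In E13.5 brain no member was called by genotype in edgeR's test, nor in DESeq2's Wald test in either sex. In males 0 of 93 members were called (0.196% of 16848 genes), with 4 at an unadjusted p of at most 0.05, and the medians were 0.02 for the mitochondrial and -0.03 for the nuclear members. mt-Cytb was among those 4, with a log2 fold change of -0.10 ± 0.0445 (adjusted p = 0.578). In females 0 of 93 were called (0.111% of 17152 genes), with 0 at an unadjusted p of at most 0.05, and the medians were -0.08, with all 13 mitochondrial members below 0, and -0.02. Each female group held 2 brains, and in neither sex is the share of all genes at that unadjusted p given here. With the GC offset the medians were -0.02 and -0.03 in males and -0.08 and -0.02 in females, and still no member was called. The low-GC minus high-GC deviation was -0.15 in the second wild-type male brain, the library of lowest depth, and -0.04 to 0.06 in the other brains, and no member was called without that library either.

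With all 10 brains in 1 fit with sex as a term, 0 of 93 members were called (0.485% of 17332 genes), with 6 at an unadjusted p of at most 0.05. Again the share of all genes at that unadjusted p is not given here. The medians were -0.04 and -0.03. Among the 6 were mt-Cytb (-0.09 ± 0.0367, adjusted p = 0.375), Atp5g1 (-0.08) and Cox7b (-0.07). The all-gene median was 0.00 in each of these fits.

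Whether the genotype effect differed between cerebellum and male brain was tested directly as a genotype by tissue term. It was called for 0 of 95 members (0.26% of 17337 genes), with 11 at an unadjusted p of at most 0.05. The share of all genes at that unadjusted p is not given here, so the 11 cannot be read as an excess. The median term was 0.11 for the mitochondrial and -0.03 for the nuclear members. mt-Cytb, at -0.10 in male brain and 0.12 in cerebellum, had the smallest p (0.22 ± 0.0629, adjusted p = 0.205), and it was called by DESeq2's Wald test (0.23, adjusted p = 0.0333) and with no filter on low counts (0.20, adjusted p = 0.00822). Among the nuclear members Cox5a had a term of -0.17 ± 0.053 (adjusted p = 0.268) and Ndufb8 -0.13 ± 0.0559 (adjusted p = 0.432). Each of these 3 genes thus had a term larger than its standard error, but edgeR's test called none of them.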

How the data were processed

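The authors isolated RNA with Trizol, made polyA libraries with a TruSeq kit, sequenced them from 1 end, aligned the reads with TopHat2 2.0.11 (mm10) and counted them over Ensembl genes with HTSeq 0.6.1. The authors deposited 1 file of raw counts per sample, with no normalization. The counting mode, and how reads with several matches were handled, are not given in the sources used here. The 3 ChIP-seq samples were not analysed here.

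Symbols, exon lengths and GC contents came from GENCODE M21, in which 40340 of 41388 identifiers were found. The rest held at most 0.171% of any library. Replicates differed by more than sampling (chi-square per degree of freedom 2.11 to 11.2), so none was counted as a duplicate. Fits used only the samples compared, in edgeR 4.0.16 under R 4.3.3 (TMM, filterByExpr with a minimum count of 10, quasi-likelihood test, Benjamini-Hochberg adjustment), and the genotype by tissue term used the cerebella and male brains. Standard errors are the log2 fold change over the root of the F statistic, and 95% intervals span 1.96 of them to each side. The GC offset was a lowess fit (span 0.3) of each sample's deviation on GC content. The steps were tested on simulated counts. Tables were made with Python 3.11.15, numpy 2.4.6, pandas 2.3.3 and scipy 1.17.1. Intervals and floors of counts cover counting error only.

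The members and lists were chosen with earlier results of these data known. Named were the mitochondrial members, members called by genotype (10 of smallest p in each direction where more), the 10 largest rises and falls between tissues without overlap, complex II, the paralogous subunits and, of other lists, up to 4 called genes of smallest p. Members printed outside this rule, such as Ndufv2, Atp5b and the tenth and later calls, were chosen after their values were seen. Alternatives were DESeq2 1.42.0 (size factors and Wald test), total counts, scaling from nuclear genes, other filters, the fold limits, the GC offset, the replicate block, other samples and leaving out each replicate. The GC and length offset and the median over the 7 mitochondrial members with fewest windows found elsewhere were added after seeing the data. Values of some named genes are not reported here.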

Additional observations from a re-analysis of the deposited data

Results flagged for a closer look

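Reads were counted on the 7 annotated pseudogenes of the mitochondrial copy on chromosome 1, which no comparison of the report used. Their summed count was 28 in the lowest library and 207 in the highest, above the 3 counts that a count of 0 allows. Per 1000000 counts the 6 cerebella lay at 5.33 to 7.30, the 6 male brains at 1.71 to 3.55 and the 4 female brains at 2.07 to 3.27.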

How the results depend on the processing

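No named value changed sign together with a call under any alternative run. In cerebellum the 15 members called became 1 with the fold limits, 7 with the GC offset, 6 with GC and length and 6 with the GC offset and replicate block, and leaving out 1 replicate gave 0 to 14 (14 without the second wild type, 11 without the third heterozygote). The mitochondrial median, 0.07, was 0.0121 with the GC offset, 0.0151 with that and the block, and 0.0426 to 0.134 without 1 replicate.

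Deviations of same-numbered samples correlated at -0.22 to -0.02, and no heterozygote correlated best with the wild type of its number. Deviations within a group offset each other, so these correlations cannot decide whether replicate numbers paired the samples. In the female groups of 2 they could only be -0.058 and 0.058, mirror values of each other. The replicate block gave 10 calls in cerebellum, 1 higher and 9 lower, and DESeq2's Wald test 10. Between tissues the mitochondrial median, 1.26, was 1.56 over the 7 members with no more than 60.8% of windows found elsewhere, 1.05 by total counts, 1.37 at an average count of 50, 1.41 with the GC offset with or without the block, 1.48 with GC and length, 1.40 in heterozygotes and 1.21 to 1.34 without 1 replicate. The nuclear median, 0.96, was 0.75 by total counts, 0.94 with the GC offset and block, 0.93 with GC and length, 0.93 in heterozygotes and 0.96 to 0.99 without 1 replicate. The genotype by tissue calls were 1 by DESeq2 and 1 without the filter, and the mitochondrial term, 0.11, was 0.0390 with the GC offset and block and 0.0440 to 0.162 without 1 replicate. The nuclear genotype median without 1 replicate was -0.0441 to -0.0261 in male and -0.0771 to 0.0282 in female brains. The cause of these shifts was not tested. Low counts limit the mitochondrial genes within the copy and the rare complex IV forms.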

Other observations

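Within the E13.5 brains, 3 mitochondrial members that lie in the copied stretch were counted more often in females than in males without overlap. These 3 are among the genes of low count, and the share of all genes that separate by sex is not given here. mt-Co2 had 1.10 to 1.99 CPM in 6 male and 3.16 to 5.52 CPM in 4 female brains, mt-Nd4l 2.04 to 4.01 and 4.56 to 7.45, and mt-Atp6 1.56 to 3.43 and 3.53 to 5.997. Outside that stretch mt-Nd2, a gene of high count, did not overlap either, at 1103 to 1229 CPM in male and 1237 to 1390 in female brains. The remaining mitochondrial members overlapped between the sexes, and the ranges of the nuclear members by sex are not given here. Within the copied stretch mt-Co3 had 0.579 to 0.922 and 0.672 to 0.740, mt-Nd3 0.579 to 1.38 and 1.157 to 1.793, and mt-Atp8 516 to 589 and 586 to 636. mt-Co1, mostly outside it, had 4322 to 4540 and 4264 to 4732. Sex was fitted in the wild-type brains alone, and the values of that fit are not reported here.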
